A study of Mus musculus with 8 samples.

Results

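Counts of 10 suprabasal epidermis genes were read separately in each of the 8 RNA sequencing libraries of whole mouse mammary gland, out of 51789 genes in the deposited table. The genes were Krt1, Krt2, Krt10, Krt77, Lor, Flg2, Krtdap, Sbsn, Dsg1a and Casp14. They were chosen because earlier results of the same counts had shown genes of the cornifying epidermis high together in 1 library, so their levels and group differences are given here as a description. Of the 10 genes, 9 had at least 1 count, and each of those 9 was highest in sEV-NORM replicate 3, 1 of 3 libraries of its group. Krt2 had 0 counts in all 8 libraries.

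The glands came from female C57BL/6 mice that had received a single injection of small extracellular vesicles (sEVs, membrane particles released by cells) into the mammary gland, and were taken 6 weeks later. Each group is defined by its injection: sEV-NORM were vesicles shed in normoxia by the mouse mammary adenocarcinoma line AT3, which is metastatic, sEV-HYP were vesicles shed by the same line in hypoxia, and sEV-CTRL were prepared in the same way from medium that had held no cells. There were 3 sEV-CTRL, 3 sEV-NORM and 2 sEV-HYP libraries, made from polyadenylated RNA of the lysed gland, with 18194996 to 24622569 counts each. The study lists the C57BL/6 mice it obtained as an albino line, with the gene Tyr in the strain name. It does not say which experiments used them. The age of the mice is not given in the sources used here. The sEV-NORM and sEV-HYP vesicles came from 1 cell line, and the labels do not say whether libraries of a group came from separate animals, although the study describes 2 to 3 animals per group. A P value therefore measures the spread between these libraries, which may be partly technical. In whole tissue, fewer cells of a type and less RNA per cell cannot be told apart.

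Stratified epidermis renews from a basal layer, and cells that leave it switch from basal keratins to the suprabasal pair Krt1 and Krt10, fill with envelope precursors in the granular layer, and are cross-linked and shed as corneocytes. Proteases and desmosomal cadherins control how firmly these dead cells hold together. The mammary gland is itself a skin appendage with basal keratins in its myoepithelium, but its ducts do not cornify. It lies directly beneath the skin.

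Several of the 10 genes sit close together in the genome (GRCm38, GENCODE annotation). Krt2 (chr15:101810689-101818169), Krt1 (chr15:101845426-101850794) and Krt77 (chr15:101858731-101869705) lie side by side in the type II keratin cluster, all on the minus strand, while their type I partner Krt10 is at chr11:99385254-99389364, minus strand. Lor (chr3:92080271-92083142, minus strand) and Flg2 (chr3:93197278-93221391, plus strand) belong to the epidermal differentiation complex. Sbsn (chr7:30751471-30756134) and Krtdap (chr7:30787896-30791097) lie close to each other on the plus strand of chromosome 7. Casp14 is at chr10:78711991-78718294 on the minus strand.

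The 250 bases before the start of transcription (RefSeq, GRCm38.p6) were read for 8 of the 10 genes. The 3 windows shown hold TGANTCA, a loose form of the AP-1 motif in which any base may stand in the middle. They are from genes that ranged from silent to present in the 7 libraries other than sEV-NORM replicate 3. AP-1 is the Fos and Jun family dimer, active in differentiating keratinocytes. Each is written 5′ to 3′ on the strand of the gene, and capitals mark TGANTCA, which reads the same on both strands. The windows are Lor at chr3:92083143-92083392 (minus strand), Flg2 at chr3:93197023-93197272 (plus strand) and Sbsn at chr7:30751221-30751470 (plus strand).
Lor: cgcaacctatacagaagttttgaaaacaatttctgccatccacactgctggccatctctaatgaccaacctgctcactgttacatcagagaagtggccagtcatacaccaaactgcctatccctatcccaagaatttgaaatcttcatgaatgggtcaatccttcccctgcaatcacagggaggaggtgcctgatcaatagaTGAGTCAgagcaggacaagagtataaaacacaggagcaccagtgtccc
Flg2: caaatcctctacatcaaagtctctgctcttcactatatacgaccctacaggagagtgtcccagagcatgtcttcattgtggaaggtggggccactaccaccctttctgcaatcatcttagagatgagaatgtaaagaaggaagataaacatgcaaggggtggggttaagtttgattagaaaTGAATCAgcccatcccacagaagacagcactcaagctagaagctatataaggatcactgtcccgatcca
Sbsn: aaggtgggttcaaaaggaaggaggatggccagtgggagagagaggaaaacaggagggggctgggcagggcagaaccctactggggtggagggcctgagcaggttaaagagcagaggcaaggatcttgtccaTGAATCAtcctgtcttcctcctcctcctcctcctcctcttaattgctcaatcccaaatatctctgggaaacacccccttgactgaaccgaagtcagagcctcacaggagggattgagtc
The capitals begin 48 bases before the start in Lor, 69 in Flg2 and 119 in Sbsn. Krtdap also held TGANTCA, 81 bases before its start, with G as the middle base as in Lor, while Flg2 and Sbsn have A there. That makes 4 of the 8 windows. Over all genes 6.75% of 32851 windows of the same length held TGANTCA, counted with any middle base. The other 4 windows, of Krt2, Krt10, Krt77 and Casp14, did not. TATAAA, searched on both strands, was present in 3 of the 8 windows (Krt10, Lor and Krtdap) and in 12.4% of all windows. Both motifs were picked with these genes in view, and a match describes letters, not binding of a factor.

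sEV-NORM replicate 3 stood apart from the others in these genes, and it decides most of the values that follow. Summed over the 10 genes, the level in CPM (counts over the TMM-scaled size of the library) was 10.7, 13.1 and 8.86 in the sEV-CTRL libraries, 12.3, 9.49 and 105 in the sEV-NORM libraries, and 10.5 and 12 in the sEV-HYP libraries, in the order of their replicate numbers. The highest library was 11.8 times the lowest, and 1.48 times when sEV-NORM replicate 3 was left out. As group means the sums were 10.9 ± 2.12 CPM in sEV-CTRL (SD, n = 3), 42.2 ± 54.2 in sEV-NORM (SD, n = 3) and 11.3 ± 1.03 in sEV-HYP (SD, n = 2), and the sEV-NORM mean was 10.9 ± 2.02 (SD, n = 2) without that library. Of the 3847 counts of the 10 genes, 2213 (57.5%) were in it, while it held 12.3% of the counts of all genes. Among all 17858 genes tested, 7.82% had their highest CPM there.

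**Figure D1:**
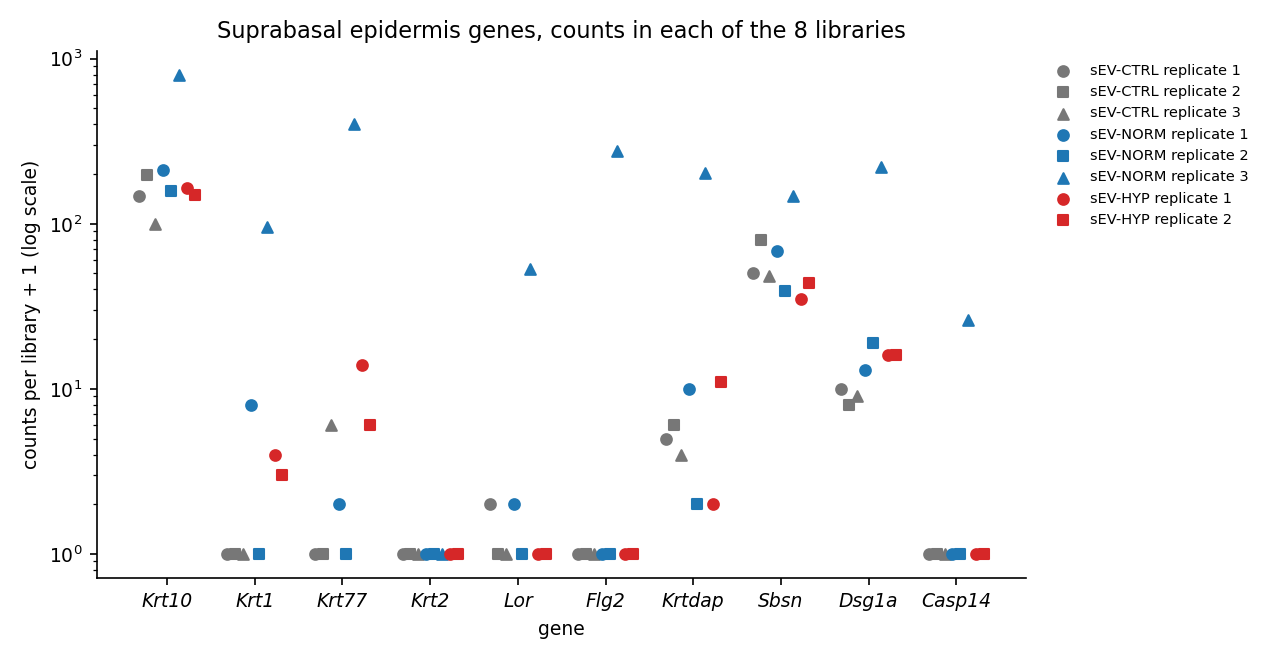
Counts plus 1 on a log scale for each of the 10 genes in each of the 8 libraries, with gray for sEV-CTRL, blue for sEV-NORM and red for sEV-HYP, and 1 point per library. The blue triangle, sEV-NORM replicate 3, lies above the other 7 points for 9 genes, from 799 counts for Krt10 to 25 for Casp14, and Krt2 is at 0 throughout.

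Krt10 is the type I keratin that pairs with Krt1 in suprabasal cells, and it was counted in every gland. It had 147, 196 and 99 counts in sEV-CTRL, 210, 157 and 799 in sEV-NORM, and 164 and 149 in sEV-HYP. All libraries but sEV-NORM replicate 3 lay within 5.42 to 8.94 CPM, and there the 3 groups overlapped, and that library reached 37.8 CPM, 5.03 times the median of the other 7. It held 41.6% of all Krt10 counts (95% exact binomial interval 39.4 to 43.8%). Intervals and limits here cover counting error only.

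Krt1, the type II partner, was close to the limit of detection elsewhere. It had 0 counts in all 3 sEV-CTRL libraries, 7, 0 and 94 in sEV-NORM, and 3 and 2 in sEV-HYP. The 94 counts made 88.7% of its total (81.1 to 94%), and at 4.45 CPM that library was 15.8 times the next highest, sEV-NORM replicate 1. Krt1 and its partner thus had different distributions: Krt10 was present in 8 of 8 libraries and Krt1 in 4. Per kilobase of transcript sEV-NORM replicate 3 had 18 CPM of Krt10 and 1.81 CPM of Krt1.

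Krt77, a second type II keratin of suprabasal cells, showed the widest gap of the keratins. Its counts were 0, 0 and 5 in sEV-CTRL, 1, 0 and 400 in sEV-NORM, and 13 and 5 in sEV-HYP. sEV-NORM replicate 3 had 18.9 CPM, 31.8 times the highest of the others, sEV-HYP replicate 1, and 94.3% of all its counts (91.7 to 96.3%). Per kilobase this was 6.46 CPM, above Krt1 and below Krt10 in the same library.

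Krt2 is the type II keratin of the upper spinous and granular layers, in the mouse best known from ear, tail and sole skin. Its 0 counts in each library allow up to 3 counts, or 0.121 to 0.164 CPM. The keratin group was therefore not complete in the library where the other 3 were high.

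Lor encodes loricrin, a main protein of the cornified envelope. It had 1, 0 and 0 counts in sEV-CTRL, 1, 0 and 52 in sEV-NORM, and 0 and 0 in sEV-HYP. Only sEV-NORM replicate 3 exceeded the 3 counts that a zero allows, with 2.46 CPM. That was 15 times the limit in the shallowest of the other libraries (0.164 CPM). Multiples of this limit leave out the counting error of the high library. Flg2 encodes filaggrin-2, which binds keratin filaments in the corneocyte, and it had 276 counts in that library and 0 in each of the other 7. At 13.1 CPM it was 79.5 times the same limit. The share of its counts in that library was 100% (98.7 to 100%).

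Krtdap, a small secreted protein of differentiating keratinocytes, had 4, 5 and 3 counts in sEV-CTRL, 9, 1 and 202 in sEV-NORM, and 1 and 10 in sEV-HYP. It was low but present in every library, at 0.0443 to 0.535 CPM outside sEV-NORM replicate 3 and 9.56 CPM in it. That value was 47 times the median of the other 7, and 86% of its counts were there (80.8 to 90.1%). Corrected for its short transcript it was the most abundant of the 10 genes in that library, at 20.3 CPM per kilobase, close to the 18 CPM per kilobase of Krt10.

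Sbsn, suprabasin, another secreted protein made above the basal layer and encoded close to Krtdap, behaved differently. It had 49, 79 and 47 counts in sEV-CTRL, 67, 38 and 146 in sEV-NORM, and 34 and 43 in sEV-HYP. sEV-NORM replicate 3 was again highest, at 6.91 CPM against 1.56 to 3.6 CPM, but by only 1.92 times the next library, sEV-CTRL replicate 2. It held 29% of the Sbsn counts (25.1 to 33.2%), the lowest share of the 9 genes detected. A non-coding gene on the same strand, Tmem147os, shares 6.96% of the 50-base windows of Sbsn transcripts, so a part of these counts could belong to either.

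Dsg1a encodes desmoglein 1 alpha, a desmosomal cadherin that holds suprabasal cells together, at chr18:20310811-20343350 on the plus strand. Its counts were 9, 7 and 8 in sEV-CTRL, 12, 18 and 219 in sEV-NORM, and 15 and 15 in sEV-HYP. Outside sEV-NORM replicate 3 Dsg1a had 0.319 to 0.457 CPM in sEV-CTRL, 0.483 and 0.798 in sEV-NORM, and 0.687 and 0.803 in sEV-HYP. These levels rest on 7 to 18 counts per library. Without that replicate the edgeR log2 fold change from sEV-CTRL was 0.66 (SE 0.57) in sEV-NORM and 0.87 (SE 0.57) in sEV-HYP. sEV-NORM replicate 3, at 10.4 CPM, was 21.5 times the median of the other 7. Its paralog Dsg1b shares 31.6% of the 50-base windows of Dsg1a, and reads from the shared stretches cannot be placed with certainty. Dsg1b itself had 15 counts in that library and 0 to 11 elsewhere.

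Casp14, a caspase active in cornification rather than in cell death, was the least abundant gene detected. It had 25 counts in sEV-NORM replicate 3, 7.2 times the limit of 3 counts in the shallowest of the other libraries, and 0 in the other 7. Its share there was 100%, with an interval from 86.3 to 100%.

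The 9 genes detected fell into 3 kinds by how they behaved in the other 7 libraries. Krt10 and Sbsn were well counted in each of those libraries and made up 90.5% of the counts of the 10 genes in them. Flg2, Casp14 and Lor never exceeded 3 counts there, and Krt1, Krt77, Krtdap and Dsg1a lay between, with at most 18 counts in a library. Per kilobase in sEV-NORM replicate 3 the levels ran from Krtdap (20.3 CPM) and Krt10 (18) through Krt77 (6.46) and Sbsn (3.11) to Flg2 (1.86), Dsg1a (1.82), Krt1 (1.81), Lor (1.38) and Casp14 (0.506). This order rests on 1 library, so neighbours in it have no replicate error. Krt10 overlaps the antisense gene Gm11940, and how strand was used in counting is not given in the sources used here.

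For sEV-NORM against sEV-CTRL, which asks what vesicles of normoxic tumor cells changed, edgeR fitted 5 of the 10 genes. Krt1, Krt2, Lor, Flg2 and Casp14 had enough counts in too few libraries to pass the filter, and Krtdap and Krt77 passed it only with sEV-NORM replicate 3. Log2 fold changes were 6.11 for Krt77 (SE 2.30), 4.01 for Krtdap (SE 1.58), 3.24 for Dsg1a (SE 1.09), 1.28 for Krt10 (SE 0.58) and 0.38 for Sbsn (SE 0.49). Krt77, Krtdap and Dsg1a had an unadjusted P under 0.05 in edgeR's quasi-likelihood test, all higher in sEV-NORM, as did 1.62% of all 17858 genes tested in either direction. Because the genes were chosen for their height in 1 of these libraries, nothing is read from this count. The adjusted P was 1 for each of the 5 in edgeR, and 0 of all genes had an adjusted P under 0.05, against 290 at the unadjusted threshold and 3 at an adjusted P under 0.05 by DESeq2 on the same groups alone. That DESeq2 fit gave a P for 5 of the 10 genes and none for Dsg1a, Krt77, Krtdap and Flg2. Of the 5, Casp14 alone had an unadjusted P under 0.05, beside 1.14% of all genes.

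Without sEV-NORM replicate 3, 3 genes could be fitted and 0 of them had an unadjusted P under 0.05 in edgeR, against 1.65% of 17730 genes. Log2 fold changes became 0.66 for Dsg1a (SE 0.57), 0.08 for Krt10 (SE 0.28) and -0.40 for Sbsn (SE 0.40), so Sbsn changed sign. With no filter on low counts and all 8 libraries, 9 genes were fitted and 8 of them, all but Sbsn, were higher at the unadjusted threshold, beside 1.96% of 27246 genes. With no filter and without that library, 0 of the 7 genes fitted were, beside 3.00% of all genes.

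For sEV-HYP against sEV-NORM, the comparison of hypoxic with normoxic vesicles, the direction rested on the same library. Log2 fold changes were -3.83 for Krt77 (SE 2.23), -3.53 for Krtdap (SE 1.79), -2.37 for Dsg1a (SE 1.19), -1.19 for Krt10 (SE 0.67) and -0.96 for Sbsn (SE 0.57). In edgeR, 0 of the 5 had an unadjusted P under 0.05, while 3.95% of all genes tested did, and by DESeq2 on these groups alone 1 of 8 with a P did, Flg2, beside 4.54% of all genes. Flg2 was lower in sEV-HYP with an adjusted P of 0.00103 in DESeq2, a comparison of 276 counts in 1 sEV-NORM library with 0 in every other library. Without sEV-NORM replicate 3 the values were 0.22 for Dsg1a (SE 0.61), 0.01 for Krt10 (SE 0.31) and -0.19 for Sbsn (SE 0.44), with 0 of 3 past the unadjusted threshold in edgeR beside 3.50% of all genes. Without a filter on low counts 8 genes were lower in sEV-HYP, again all but Sbsn, beside 4.04% of all genes. With neither the filter nor that library 1 of 7 was past the threshold, beside 5.01% of all genes. This was Krt77, and it was higher in sEV-HYP, with a log2 fold change of 4.05 (SE 1.95), from 13 and 5 counts against 1 and 0.

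For sEV-HYP against sEV-CTRL, in which the sEV-NORM libraries enter only through the shared estimate of spread and the filter, each difference was close to or smaller than its standard error. Log2 fold changes were 2.28 for Krt77 (SE 2.73), 0.87 for Dsg1a (SE 1.22), 0.48 for Krtdap (SE 1.94), 0.09 for Krt10 (SE 0.65) and -0.59 for Sbsn (SE 0.57). Krt77 and Krtdap were fitted here only because sEV-NORM replicate 3 let them pass the filter. In edgeR 0 of 5 had an unadjusted P under 0.05, against 2.45% of all genes tested, and 0 of the 7 genes fitted by DESeq2 on these groups alone did (beside 1.50%). The count was also 0 of 9 without a filter (beside 2.47% of all genes), 0 of 3 without sEV-NORM replicate 3 (beside 1.92%) and 0 of 7 with neither (beside 2.95%). Dsg1a kept 0.87 without that library, with a smaller error (SE 0.57). This comparison shares its sEV-CTRL libraries with the first and its sEV-HYP libraries with the second, so the 3 sets of fold changes are not independent.

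**Figure D2:**
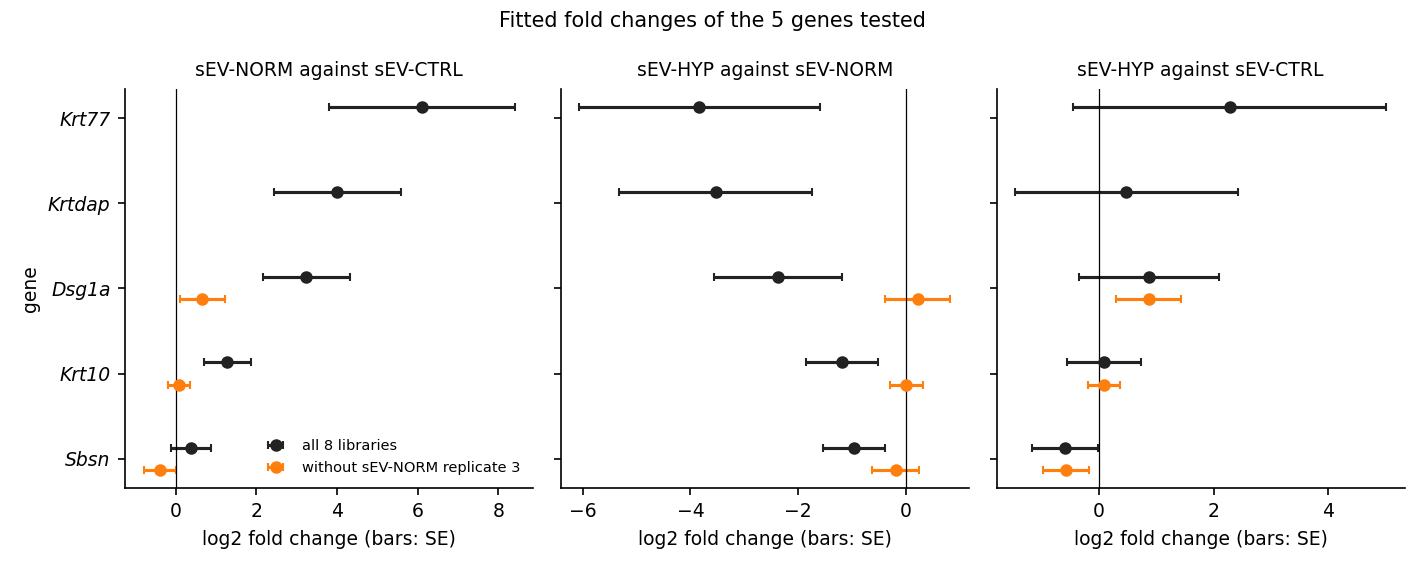
Log2 fold changes of the 5 genes fitted by edgeR in each of the 3 comparisons, with bars for the standard error, black for all 8 libraries and orange without sEV-NORM replicate 3. Krt77 and Krtdap have no orange point because they did not pass the filter without that library, and the orange points lie between -0.40 and 0.66 for sEV-NORM against sEV-CTRL, where the black ones reach 6.11.

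Other genes of the cornified envelope were read from a list of 33, 23 of which had a count. By CPM sEV-NORM replicate 3 was highest for 18 of the 23. In 9 of them it alone had any counts and had more than 3, with 57 for Crct1, 46 for Kprp, 45 for Lce1m, 43 for Hrnr, 31 for Csta1, 19 for Flg (filaggrin), 12 for Lce1d, 5 for Lce1a1 and 4 for Lce1b. Lce1f, Lce1g, Lce1i, Lce3b, Lce3c, Sprr1b, Sprr2d, Sprr2h, Sprr3 and Sprr4 were at 0 in all 8 libraries, so the envelope genes were present in part. The most abundant genes of the list differed less. Ppl (periplakin) was highest there by a small margin, at 12.6 CPM against 5.86 to 12.3, and Tgm1, the transglutaminase that cross-links the envelope, was within the range of the others, at 6.62 CPM against 5.56 to 12. Sprr1a, a proline-rich precursor, had 10 counts there, against 67 and 20 in sEV-HYP and 46 in sEV-NORM replicate 2, and was the only one of 7 genes tested with an unadjusted P under 0.05 in sEV-HYP against sEV-CTRL by edgeR (log2 fold change 2.97, SE 1.25; 2.97, SE 1.29 without sEV-NORM replicate 3). In the other 2 comparisons 0 of 7 passed it. Over all genes tested 2.45% passed it in sEV-HYP against sEV-CTRL, 3.95% in sEV-HYP against sEV-NORM and 1.62% in sEV-NORM against sEV-CTRL. Without sEV-NORM replicate 3 the shares were 1.92%, 3.50% and 1.65%. These shares also stand beside the lists that follow, and 0 genes had an adjusted P under 0.05 in either edgeR fit.

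Desquamation proteases and their inhibitors showed the same split. Of 9 detected in a list of 10, 6 were highest by CPM in sEV-NORM replicate 3. Spink5, the inhibitor of epidermal kallikreins, had 162 counts there against 0 to 11 elsewhere, Klk7 had 59 against 0 to 4, and Klk5 had 19 against 0. The broadly expressed St14 (matriptase) was only just highest there, at 13.7 CPM against 8.4 to 13.4, while Prss8 (prostasin), at 4.68 CPM against 2.39 to 5.19, and Klk8, at 3.5 against 1.98 to 6.79, were inside the range of the other libraries. Of the 4 tested by edgeR, 0 had an unadjusted P under 0.05 in any comparison.

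Among 22 other suprabasal and granular layer genes, 13 were highest in that library. Dsc1, the desmocollin found with desmoglein 1 in upper desmosomes, had 69 counts against 0 to 3, Dmkn (dermokine) 168 against 5 to 38, Calm4 40 against 0 to 6, and Skint5 15 against 0. Ly6d, which lymphoid precursors also express, made up most of the list and had 2292 counts there against 1943 to 3931, Cdsn (corneodesmosin) had 709 against 428 to 1244, and Grhl1, an epidermal transcription factor, 329 against 173 to 438. Of 13 tested by edgeR, Ovol1 was higher in sEV-NORM than in sEV-CTRL (log2 fold change 1.17, SE 0.50) and Dmkn lower in sEV-HYP than in sEV-NORM (-3.09, SE 1.06) at the unadjusted threshold, and 0 passed in sEV-HYP against sEV-CTRL. Without sEV-NORM replicate 3 neither passed, at 1.15 (SE 0.60) for Ovol1 and -1.46 (SE 0.70) for Dmkn, while Dmkn was then lower in sEV-HYP than in sEV-CTRL (-1.62, SE 0.66). In a list of 12 barrier lipid enzymes, 5 were highest in that library, among them Sdr9c7 with 20 counts against 0 and Abca12, the lamellar body lipid transporter, with 40 against 0 to 4. Ugcg, the glucosylceramide synthase, was within the range of the other libraries (3700 against 2667 to 5487), and Elovl4, a fatty acid elongase, was above it (119 against 13 to 39). Cyp4f39, an acylceramide hydroxylase with 5 counts there, was the 1 of 8 tested past the unadjusted threshold in edgeR, lower in sEV-NORM than in sEV-CTRL (log2 fold change -2.02, SE 0.76) and higher in sEV-HYP than in sEV-NORM (2.72, SE 0.81). Without that library Cyp4f39 again passed in both (-2.20, SE 0.93, and 2.90, SE 0.98), beside 1.65% and 3.50% of all genes. Sult2b1, a cholesterol sulfotransferase, then also passed in sEV-HYP against sEV-NORM (1.50, SE 0.55, against 1.06, SE 0.52 with all 8 libraries). In sEV-NORM against sEV-CTRL the median log2 fold change of the genes tested was 0.30 for the other envelope genes, 0.74 for the other suprabasal genes, 0.23 for the proteases and inhibitors and 0.08 for the lipid enzymes, beside -0.001 over all genes tested.

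The markers of other cell types that a dissected gland can hold were read in the same libraries. Hair follicle genes were few: of 21, 11 had a count and 7 were highest in sEV-NORM replicate 3, where their summed level was 4.12 CPM against 0.523 to 1.19 in the other 7. Krt25, Krt27 and Hoxc13 had 22, 9 and 6 counts there and 0 elsewhere, whereas 10 genes, among them the hair shaft keratins Krt33b, Krt34, Krt35, Krt81 and Krt86, were at 0 in all 8 libraries. Sebaceous gland genes summed to 82.5 CPM there against 70.3 to 105 elsewhere, and Soat1 made up 67.2 of the 82.5. Of 9 sebaceous genes 3 were highest there and the others were not. Mc5r had 98 counts against 27 to 72, Krt79 23 against 4 to 17, and Awat1 1 against 0. Melanocyte genes summed to 47.7 CPM in that library against 23.6 to 41.9. Of the melanocyte genes, Mitf made up 41.5 of the 47.7 CPM, against 20.4 to 37.5 elsewhere. Tyr had 28 counts against 0 to 11 and Tyrp1 12 against 0 to 4. Dct (53 against 26 to 74), Mlana (35 against 2 to 56) and Pmel (3 against 0 to 13) were inside the range of the other libraries. Oca2 and Slc45a2 were at 0 throughout. Of the hair, sebaceous and melanocyte genes tested by edgeR (1, 7 and 4), 0 had an unadjusted P under 0.05 in any comparison. The part of hair follicle, sebaceous or pigment cells in the epidermal counts was not tested.

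Genes of the basal layer, which mammary myoepithelium shares, differed less between the libraries. Their sum over 14 genes was 381 CPM in sEV-NORM replicate 3 against 256 to 377 elsewhere, and 6 of the 14 were highest there. Dsg3 had 10 counts there and 0 elsewhere, Krt15 had 85 counts against 2 to 43, and Perp 825 counts against 105 to 480. Krt5 was at 13.8 CPM against 6.65 to 12.9 and Krt14, its partner, at 7.85 CPM against 3.86 to 7.48. The most abundant genes of the list were inside the range of the other libraries. Itga6, which made up most of the sum, was at 209 CPM against 150 to 238. Dsc3 was at 41.8 against 23 to 82.5, and Trp63 at 27.8 against 9.65 to 35.3. Of 13 tested by edgeR, Krt15 was higher at the unadjusted threshold in sEV-NORM (log2 fold change 2.63, SE 0.70) and in sEV-HYP (2.28, SE 0.75) than in sEV-CTRL, and Lgals7 was higher in sEV-HYP than in sEV-CTRL (1.43, SE 0.57). In the comparison of sEV-HYP with sEV-NORM 0 of 13 were past it. Without sEV-NORM replicate 3 Krt15 was past it in both comparisons (1.77, SE 0.64, and 2.28, SE 0.64), and so was Lgals7 in its own (1.43, SE 0.55). In that fit 1.65% of all genes were past it in sEV-NORM against sEV-CTRL and 1.92% in sEV-HYP against sEV-CTRL. At an adjusted P under 0.05 there were 0.

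The tissue label itself held in all 8 libraries. Mammary luminal genes summed to 1153 to 2469 CPM, with 2033 in sEV-NORM replicate 3, myoepithelial genes to 400 to 629 with 520 there, and white adipocyte genes to 6584 to 12388 with 10590 there. Skeletal muscle genes varied most, from 11.3 CPM in sEV-NORM replicate 2 to 13499 in sEV-HYP replicate 2, and the 1550 CPM of sEV-NORM replicate 3 lay inside that range. In these 4 lists sEV-NORM replicate 3 was 1.08, 0.969, 1.12 and 0.482 times the median of the other 7. For the 10 suprabasal genes the same ratio was 9.82. At the unadjusted threshold of edgeR, 0 of the luminal, muscle and adipocyte genes passed in any comparison with all 8 libraries, and of 10 myoepithelial genes Oxtr and Cnn1 were higher in sEV-HYP than in sEV-CTRL and Cnn1 also than in sEV-NORM. Without sEV-NORM replicate 3 the log2 fold change of Cnn1 from sEV-CTRL stayed at 0.58 but just missed the threshold (SE 0.25 with and 0.26 without that library), and that of Oxtr stayed at 0.76. In that fit Csn3 passed in sEV-NORM against sEV-CTRL (1.09, SE 0.41), beside 1.65% of all genes. Pparg (0.74, SE 0.29) and Cfd (0.63, SE 0.27) passed in sEV-HYP against sEV-NORM, beside 3.50%. Whether skin was part of the tissue taken for that library was not tested.

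**Figure D3:**
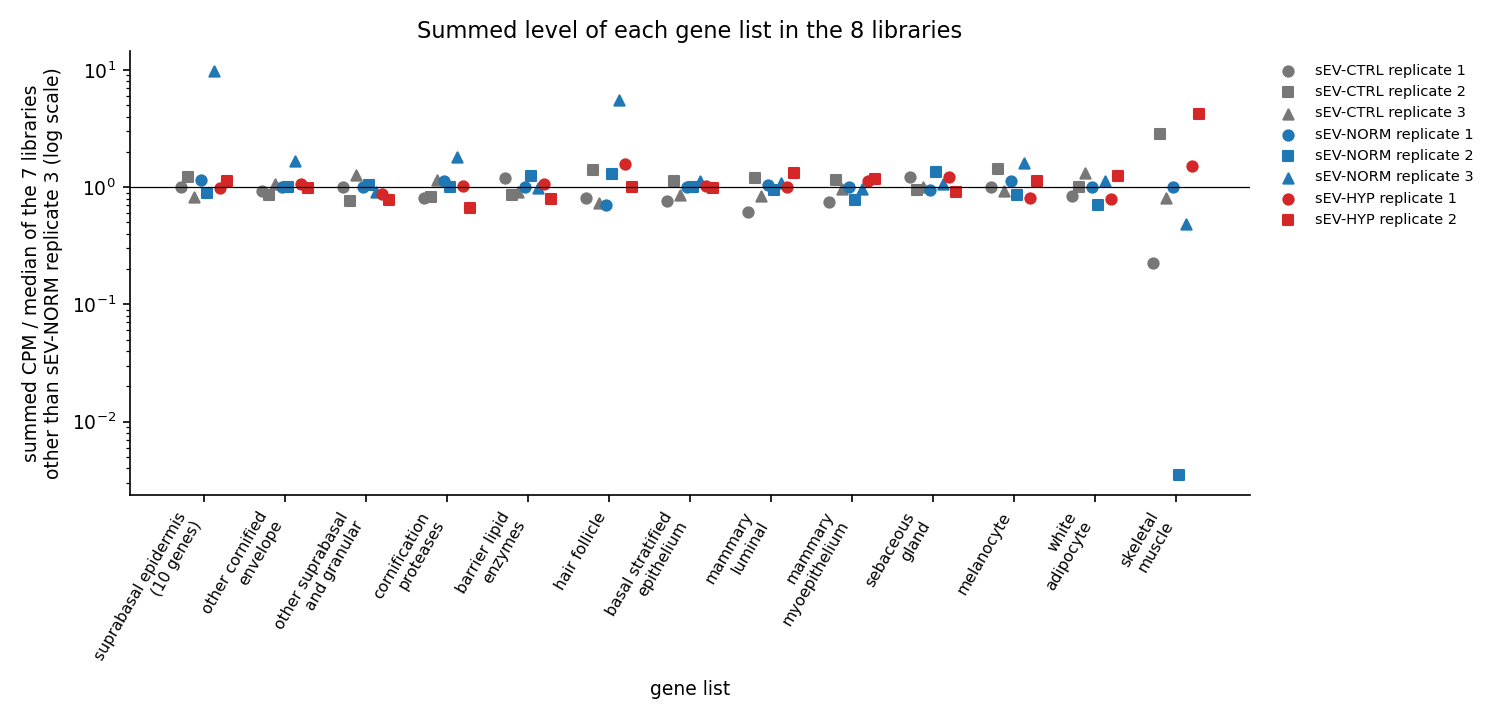
Summed CPM of each gene list in each library divided by the median of the 7 libraries other than sEV-NORM replicate 3, on a log scale, with 1 point per library. That replicate (blue triangle) is at 9.82 for the 10 suprabasal genes and 5.49 for hair follicle genes, and between 0.482 and 1.82 for the other lists. A sum follows its most abundant genes. In that replicate Ugcg made up 175 of 227 CPM of the lipid enzymes, of which 5 of 12 were highest there. Ly6d made up 108 of 191 CPM of the other suprabasal genes, of which 13 of 22 were highest there.

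Genes with at least 90% of their counts in 1 library were sought among all genes. The 10 genes and the lists were chosen with earlier results of these data known, so how many of them appear here is a description. Of 20051 genes with at least 20 counts, 19 had at least 90% of them in sEV-NORM replicate 3, and 0 to 3 in each of the other 7. Of the 19, 4 were among the 10 genes (Krt77, Flg2, Lor and Casp14), 7 more were on the lists of epidermal genes (Dsc1, Crct1, Kprp, Lce1m, Hrnr, Csta1 and Sdr9c7), and 1, Krt25, was on the hair list. In the other libraries 0 such genes were on any of these lists. sEV-CTRL replicate 1 had 3, all of them immunoglobulin variable segments.

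**Figure D4:**
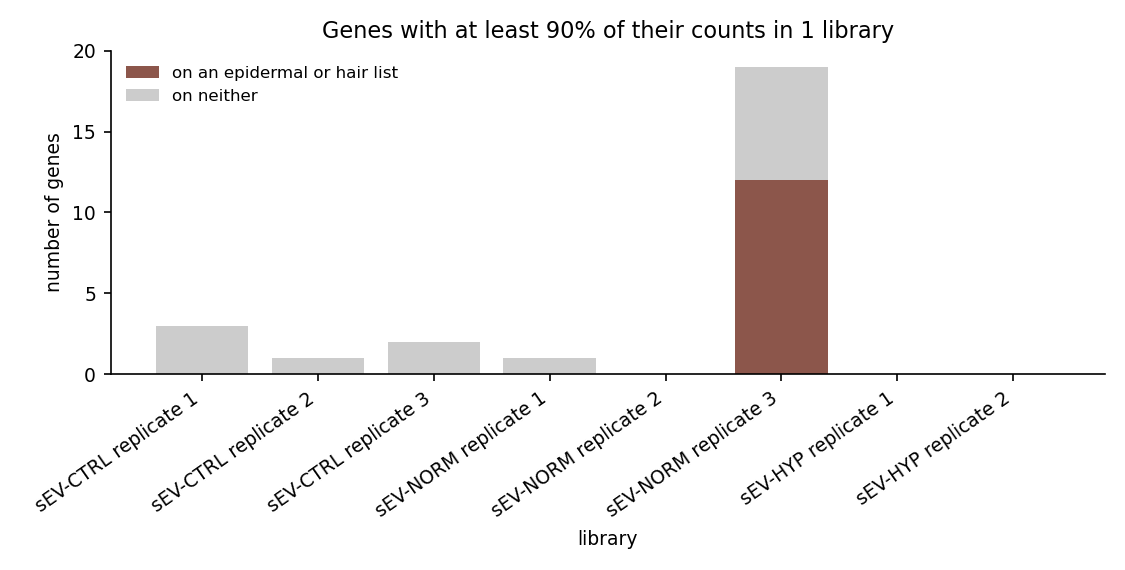
Number of genes with at least 20 counts and at least 90% of them in 1 library, for each of the 8 libraries, with those on an epidermal or hair list in brown and the rest in gray. sEV-NORM replicate 3 has 19, of which 12 are brown, and the other 7 libraries have 0 to 3, none of them brown.

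Among the 17853 other genes tested, B4galt1 (a galactosyltransferase), Sp6 (a transcription factor of skin appendages) and Scel (sciellin, a cornified envelope protein) followed the mean log2 level of the 10 genes most closely over the 8 libraries. Their Pearson r was 0.963, 0.954 and 0.94. The next 6 were Galnt16, Gm43360, Tmem218, Ttc21b, D430042O09Rik and Col23a1, down to an r of 0.868. These values describe 8 points of which 1 stands far from the rest. B4galt1 had 1870 counts in sEV-NORM replicate 3 against 1239 to 1609 elsewhere, Sp6 had 23 against 8 to 12, and Scel 185 against 31 to 67. Without that library r was 0.489 for B4galt1, 0.141 for Sp6 and 0.141 for Scel. Genes that did not pass the filter, such as Crct1, Kprp, Hrnr and Dsc1, could not be ranked. Of the 10 most alike genes, 0 were among the 10 most alike without that library, and 0 among the 10 most alike by Spearman's rho.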

How the data were processed

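The deposited values are counts per Ensembl gene, which the authors estimated with RSEM 1.2.12 from reads aligned by STAR to mm10 (GRCm38). How the estimates became whole numbers is not given in the sources used here. Groups came from the sample labels, and 0 columns lacked a sample. Symbols were matched for 51596 of 51789 genes, and the rest held 0.0389% of counts. No pair of libraries agreed within sampling noise (chi-square per gene at least 27.6).

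The main test was the two-sided quasi-likelihood F-test of edgeR 4.0.16 (R 4.3.3), after filterByExpr (minimum count 10) and TMM scaling (factors 0.975 to 1.02), in 1 model of the 3 groups, with 5 residual degrees of freedom, a common biological coefficient of variation of 0.297 and Benjamini-Hochberg adjustment over 17858 genes. The unadjusted threshold of 0.05 is the one the study applies to genes. The study's methods used DESeq2 (here version 1.42.0, an alternative). Other alternatives were DESeq2 size factors, other filters, the replicate number as a block, the 2 groups alone, and each library left out. The procedure was tested on simulated data. CPM per kilobase used the longest coding transcript. A zero allows 3 counts.

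The 10 genes, the 12 other lists and the motifs were chosen with earlier results of these data known. Genes named were the 10, the 3 with the highest mean CPM among the tested genes of a list, and the 10 most alike by Pearson r of log2 CPM (prior count 2), not all of which are reported here. Other names, the genes with at least 90% of their counts in 1 library and the fit with neither filter nor sEV-NORM replicate 3 were chosen after the values were seen. Sequences are from RefSeq (GRCm38.p6).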

Additional observations from a re-analysis of the deposited data

How the results depend on the processing

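With 3, 3 and 2 libraries, 1 library decided the values of these genes. The number of the 10 genes with an unadjusted P under 0.05 in sEV-NORM against sEV-CTRL (3) fell to 0 without sEV-NORM replicate 3 and ran from 0 to 6 over all libraries left out, being 0 without sEV-CTRL replicate 2 or 3, 1 without sEV-CTRL replicate 1 and 6 without either sEV-HYP library. In sEV-HYP against sEV-NORM (0) it ran from 0 to 5, with 5 without sEV-NORM replicate 2 and 3 without sEV-NORM replicate 1, and with 1 group at a single library that library was assumed to vary like the others. The median log2 fold change of the genes fitted ran from 0.08 to 5.22 and from -3.80 to 0.01 in these comparisons, and the ratio of the summed level from 1.48 to 11.8. The number of the 10 genes fitted differed between these fits. It was 5 with all 8 libraries or without any 1 sEV-CTRL library, 3 without sEV-NORM replicate 3 and 9 without either sEV-HYP library. Flg2, Krt1 and Lor, not fitted with all 8 libraries, were among the genes past the threshold without either sEV-HYP library. Counts and medians from fits of different genes are therefore not directly comparable. Other settings also changed which genes could be fitted. In sEV-NORM against sEV-CTRL the count and the median were 8 and 5.20 without a filter. They were 0 and 0.83 with at least 10 counts in every library, and 0 and 0.06 with neither filter nor sEV-NORM replicate 3. On these groups alone they were 1 and 1.27 by edgeR and 1 and 5.40 by DESeq2. By DESeq2 on all 8 libraries they were 3, of 6 genes with a P, and 5.41, beside 349 of 27208 genes. Those 3 were Krt1, Krt10 and Krtdap, where the main fit had Dsg1a, Krt77 and Krtdap. In sEV-HYP against sEV-NORM the count was 8 without a filter, 1 by either DESeq2 fit, and 1, with a median of 0.03, with neither filter nor that library. The ratio was 26.5 without Krt10 and 19.6 from the mean of log2 CPM. With the replicate number as a block, 1 of the 10 genes, Krt77, passed the unadjusted threshold in each comparison (beside 401, 769 and 252 of 17858 genes for HYP against CTRL, HYP against NORM and NORM against CTRL). Its log2 fold change turned from -3.83 to 3.81 in HYP against NORM and went from 2.28 to 9.73 in HYP against CTRL, and the median for sEV-HYP against sEV-NORM was -0.51. Deviations of same-numbered libraries from their group means had no common sign (r from -0.416 to 0.369). In groups of 2 or 3 libraries such deviations are tied to each other, so these values cannot show or exclude a pairing. Over all genes the counts were 672, 1102 and 533 without a filter and 791, 1342 and 804 with neither filter nor that library (HYP against CTRL, HYP against NORM, NORM against CTRL), 1195 for HYP against NORM by DESeq2 on these groups alone, and 341 to 1472, 415 to 986 and 222 to 1018 with 1 library left out, where sEV-CTRL replicate 2 gave 1472, 986 and 1018 and sEV-HYP replicate 2 415. The cause was not tested beyond the genes and libraries each setting removes.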

Other observations

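Of the 19 genes with at least 90% of their counts in sEV-NORM replicate 3, 7 were on no list. Gm94 had 80 counts there of 82 in all, Lypd5 32 of 32, Cyp2g1 27 of 27, Sdr16c6 23 of 23, C130079G13Rik 23 of 23 and 2310050C09Rik 21 of 21. The immunoglobulin segment Ighv1-5 had 301 of 330 there. These names were chosen after their values were seen.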
